A study of Mus musculus with 9 samples.

Results

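Smooth muscle of the aortic wall was followed here through 32 genes of its contractile apparatus, its cytoskeleton and their regulation. The genes were chosen by name from textbook knowledge of smooth muscle, and each was read at those probe sets (groups of short array probes for 1 transcript) that the array's annotation pairs with that gene alone. All 32 were found, with 74 probe sets among the 45037 of the array that are not controls, and they are 32 of 18193 genes that had a probe set of their own. A gene's value is that of its brightest probe set over all arrays. The study measured RNA of whole aortae on Affymetrix MOE 430V2 arrays, 1 for each sample, in 4 BMAL-/- mice, which lack BMAL (Arntl), a transcription factor of the circadian clock, and in 5 BMAL+/+ mice. All mice were male, of a strain partially backcrossed onto C57Bl/6J, and the sources used here give no age. They lived for at least 2 weeks in 12 h of light and 12 h of darkness, then stayed in darkness for at least 30 h, and were killed at ZT14, an hour of the cycle at which their earlier schedule would have been dark. The BMAL-/- arrays are F02, F03, F05 and F08, and the BMAL+/+ arrays are F01, F04, F07, F09 and F10. No label limits the knockout to a cell type.

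Smooth muscle contracts when myosin pulls on actin filaments. Calcium with calmodulin activates myosin light chain kinase, which phosphorylates the regulatory light chain, and myosin phosphatase removes that phosphate. The inhibitor protein encoded by Ppp1r14a holds the phosphatase back. Actin filaments are anchored at adhesion plaques, where vinculin, talin and alpha-actinin tie them to integrins. Many genes of this apparatus are driven by serum response factor, which binds a CArG box (CC, a stretch of A and T, then GG) and works with its partner myocardin in differentiated smooth muscle.

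Several labels and values touch every result that follows. F01 is BMAL+/+ by its title and strain entry, while its source entry names the other genotype, and it is kept here as BMAL+/+. The probe set of Arntl, the targeted gene, read 5.87, 6.22, 2.77 and 6.05 on the BMAL-/- arrays F02, F03, F05 and F08, against 2.76, 6.67, 2.79, 2.82 and 2.74 on the BMAL+/+ arrays F01, F04, F07, F09 and F10 (log2 scale, here and throughout). The sources used here do not say if that probe set covers deleted exons. Npas2, a relative of the BMAL partner CLOCK, read 3.40 on F05 where F02, F03 and F08 read 7.90 to 8.52, and 8.36 on F04 where the remaining BMAL+/+ arrays read 3.37 to 3.40. Nr1d2, a target of BMAL, showed the mirror image, at 11.21 on F05 and 5.81 on F04. The array labelled BMAL-/- F05 and the array labelled BMAL+/+ F04 thus stood with the opposite genotype in these clock genes, and each result is given over all 9 arrays as labelled and over the 7 arrays left without those. RNA quality differed as well. The 3′ minus 5′ difference of the arrays' own beta-actin and Gapdh control probe sets, which grows when RNA is degraded, averaged 3.77 on F02, 3.54 on F03, 1.5 on F05 and 0.93 on F08, against 1.99 on F01, 3.46 on F04 and 0.63 to 0.85 on F07, F09 and F10. F02, F03 and F04 therefore lay above all other arrays, and both high BMAL-/- arrays remain among the 7. Array medians spanned 3.13 to 3.24.

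The promoters were searched for CArG boxes, since serum response factor drives many genes of this apparatus through them, and 4 are shown with CArG boxes in capitals. The choice and grouping of the 32 genes did not use the promoters. The sequences are those of RefSeq on GRCm38.p6, from 250 bases before to 50 bases after a gene's start, written 5′ to 3′ on the gene's strand. An exact CArG box was CC, 6 letters that are each A or T, and GG, and the looser search let 1 of those 6 letters be another base. Both strands were searched, and every exact box is counted among the looser ones too. The Acta2 promoter, of the smooth muscle alpha-actin, lies at chr19:34255324-34255623 on the minus strand. Those of Myl9, the regulatory light chain of myosin, and Vcl, vinculin, lie at chr2:156775214-156775513 and chr14:20929148-20929447 on the plus strand. That of Srf, serum response factor itself, lies at chr17:46556113-46556412 on the minus strand.
Acta2 promoter: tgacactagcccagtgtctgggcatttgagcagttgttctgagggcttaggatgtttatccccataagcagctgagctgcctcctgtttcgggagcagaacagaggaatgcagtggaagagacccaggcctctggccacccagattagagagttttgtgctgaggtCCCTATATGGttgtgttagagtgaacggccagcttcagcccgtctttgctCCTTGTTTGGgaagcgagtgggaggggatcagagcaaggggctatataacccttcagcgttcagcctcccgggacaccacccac
Myl9 promoter: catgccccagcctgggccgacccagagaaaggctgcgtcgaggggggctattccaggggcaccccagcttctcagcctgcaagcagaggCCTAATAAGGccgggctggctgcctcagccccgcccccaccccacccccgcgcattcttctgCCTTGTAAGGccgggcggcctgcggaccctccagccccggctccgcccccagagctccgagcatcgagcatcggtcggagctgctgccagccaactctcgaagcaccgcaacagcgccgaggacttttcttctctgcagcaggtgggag
Srf promoter: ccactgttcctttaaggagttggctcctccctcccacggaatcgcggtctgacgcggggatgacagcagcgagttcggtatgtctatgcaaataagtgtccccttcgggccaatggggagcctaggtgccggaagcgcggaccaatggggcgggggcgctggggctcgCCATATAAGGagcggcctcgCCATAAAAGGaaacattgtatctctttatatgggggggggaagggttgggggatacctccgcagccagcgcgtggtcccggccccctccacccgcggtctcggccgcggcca
Vcl promoter: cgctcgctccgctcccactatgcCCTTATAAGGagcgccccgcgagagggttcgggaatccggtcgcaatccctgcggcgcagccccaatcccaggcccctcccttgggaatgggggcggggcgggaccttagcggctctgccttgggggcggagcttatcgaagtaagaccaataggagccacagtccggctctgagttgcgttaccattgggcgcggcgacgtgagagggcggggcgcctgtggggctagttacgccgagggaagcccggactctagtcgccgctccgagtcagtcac

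Acta2 held 2 of the looser boxes, which began 84 and 34 bases before the start. Myl9 held an exact box 161 bases before the start and a looser one 99 bases before it. Srf held 2 exact boxes, 82 and 62 bases before its start, and Vcl held 1, CCTTATAAGG, 227 bases before. Of the 32 genes, 26 had a promoter in the RefSeq table. An exact box was found in 5 of these 26 (Cnn2, Myl6, Myl9, Srf and Vcl), or 19.2%, beside 1.81% of all 27025 genes with a promoter of this length. With 1 mismatch allowed, Acta2 and Dstn joined them, so that 7 of 26 genes (26.9%) held a box, beside 11.3% of all genes. The E-box CACGTG, the letters that BMAL binds with its partner CLOCK, was in 0 of the 26 windows and in the windows of 8.09% of all genes. These matches describe letters in a short window and say nothing about binding. Promoters of Tagln, Myh11, Actg2, Myocd, Nexn and Rock1 are not shown.

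Over all 9 arrays, none of the 32 smooth muscle genes could be called different between BMAL-/- and BMAL+/+ aortae. With limma and Benjamini-Hochberg adjustment over all probe sets, 0 of 32 passed an adjusted p of 0.05, as did 0% of all genes, and their adjusted p-values ran from 0.37 to 0.98. At an unadjusted p under 0.05, 0 genes were lower and 0 higher, and the one-way analysis of variance that the study's design names also left 0 at an adjusted p of 0.05. The shares of all genes past the unadjusted threshold were 0.731% lower (1.16% among the 11180 genes above the median brightness of the array) and 6.52% higher. In 0 of 32 genes did the 2 groups' values separate without overlap, beside 0.165% of all genes separated with BMAL-/- lower (0.259% of the brighter ones) and 0.561% with BMAL-/- higher. The estimates nevertheless leaned one way. In 26 of 32 genes (81.2%) BMAL-/- aortae averaged below BMAL+/+ aortae by some amount, beside 47.5% of the brighter genes, and the median difference of the 32 was -0.33 log2 units, beside 0.03 over all genes. In a whole aorta, fewer smooth muscle cells and less RNA per cell cannot be told apart, and RNA quality differed between the arrays too. Single arrays moved that median, to -0.12 without F03 and -0.50 without F05, and without F05 6 of the 32 genes were lower at an unadjusted p under 0.05, beside 2.58% of all genes. Without any other single array that count was 0 to 2.

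Without F04 and F05 the estimates were larger, and again no gene passed. In these 7 arrays (3 BMAL-/- and 4 BMAL+/+), 0 of 32 genes had an adjusted p under 0.05 (0.0165% of all genes did), the range being 0.21 to 0.96. At an unadjusted p under 0.05, 11 of 32 (34.4%) were lower in BMAL-/- aortae, beside 4.13% of all genes and 6.65% of the brighter ones, and 0 were higher, beside 18.2% of all genes. The 11 were Myh11, Myl6, Myl9, Tagln, Tpm1, Smtn, Dstn, Actn1, Flna, Csrp1 and Rgs5. That count was 5 without F02 (beside 2.47% of all genes), 5 without F03 (2.3%), 13 without F08 (6.4%), 7 without F01 (4.18%), 4 without F07 (2.58%), 11 without F09 (3.61%) and 7 without F10 (2.87%). The groups separated without overlap, with BMAL-/- lower, for Myh11, Smtn, Flna and Rgs5, 4 of 32 or 12.5%, beside 3.13% of all genes and 5.06% of the brighter ones. At its brightest probe set, no smooth muscle gene was separated with BMAL-/- higher, beside 14.4% of all genes. Dimmer probe sets of Tpm1 and Tln1 were separated that way, at 1.28 ± 0.59 and 0.12 ± 0.09. Dimmer ones of Mylk, Rock1 and Rgs5 were separated with BMAL-/- lower. BMAL-/- aortae averaged lower by some amount in 30 of 32 genes, all but Nexn and Myocd, beside 45.8% of the brighter genes, and the median difference was -0.60, beside 0.04 over all genes. Without F03 it was -0.43 and without F08 -0.83. Without F08, 12 of 32 genes fell below an adjusted p of 0.05, all lower, but so did 31.3% of all 18193 genes. The BMAL-/- arrays left in that fit were F02 and F03 alone, the 2 with the largest 3′ minus 5′ differences of all. With array weights, which let limma count discordant arrays for less, the same 12 genes passed, beside 30.2% of all genes.

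**Figure D1:**
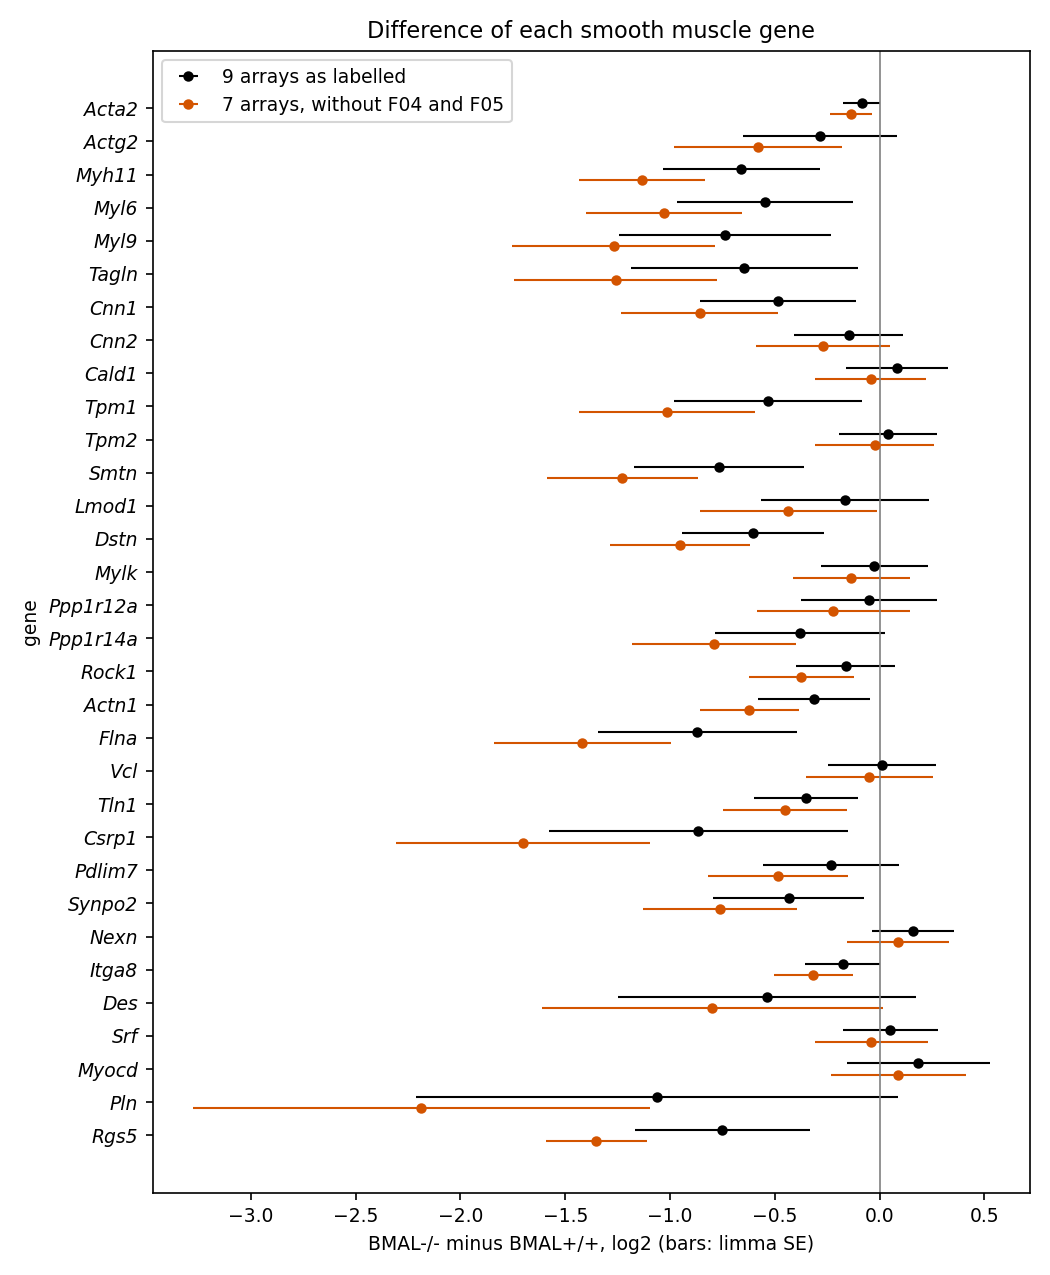
Difference of each of the 32 genes, BMAL-/- minus BMAL+/+, in log2 units on the horizontal axis, with genes in the order of their roles down the page. Points are limma's estimates and bars its standard error, black for all 9 arrays and orange for the 7 arrays without F04 and F05. Most points lie left of 0, 26 of 32 in black and 30 of 32 in orange, and Pln has the widest bars.

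Actins and myosin came out lower by estimate in 5 of 5 genes, with a median difference of -0.55 over 9 arrays and -1.03 over 7. Acta2, which encodes the smooth muscle alpha-actin that fills the thin filament, read 14.03, 13.99, 14.27 and 14.23 on the BMAL-/- arrays F02, F03, F05 and F08, against 14.23, 14.20, 14.37, 14.09 and 14.19 on the BMAL+/+ arrays F01, F04, F07, F09 and F10. The groups overlapped, and the gene's whole range was under 0.4 log2 units, the narrowest of the 32 in either group. Its difference was -0.09 ± 0.09 (limma SE, n = 4 and 5, adjusted p = 0.58), and -0.14 ± 0.10 over 7 arrays (adjusted p = 0.37). The dimmest of its 3 probe sets varied far more, from 4.39 on F03 to 8.19 on F07, and averaged 5.92 in BMAL-/- and 6.87 in BMAL+/+ aortae (adjusted p = 0.47).

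The myosin heavy chain gene Myh11 read 11.67, 11.55, 13.11 and 12.78 on the BMAL-/- arrays, against 13.16, 12.16, 13.30, 13.06 and 13.01 on the BMAL+/+ arrays. F02, F03 and F04 were low, the other 6 arrays lay between 12.78 and 13.30, and the groups overlapped through F05 and F04. The difference was -0.66 ± 0.38 (adjusted p = 0.37) over 9 arrays and -1.13 ± 0.30 (adjusted p = 0.21) over 7, in which every BMAL-/- value lay under every BMAL+/+ value. Its second probe set was near the floor, averaging 4.14 in BMAL-/- and 3.95 in BMAL+/+ aortae. Myl9, the regulatory light chain whose phosphorylation starts contraction, read 11.40, 10.91, 12.83 and 13.02 in BMAL-/-, against 12.70, 11.71, 13.31, 13.02 and 13.15 in BMAL+/+ aortae. The same 3 arrays were the low ones, and F08 stood with the BMAL+/+ arrays. Its difference was -0.74 ± 0.51 (adjusted p = 0.42) and -1.27 ± 0.48 (adjusted p = 0.21). Actg2, the gamma-actin of enteric smooth muscle, and Myl6, the essential light chain, differed by -0.28 ± 0.37 and -0.55 ± 0.42 over 9 arrays.

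**Figure D2:**
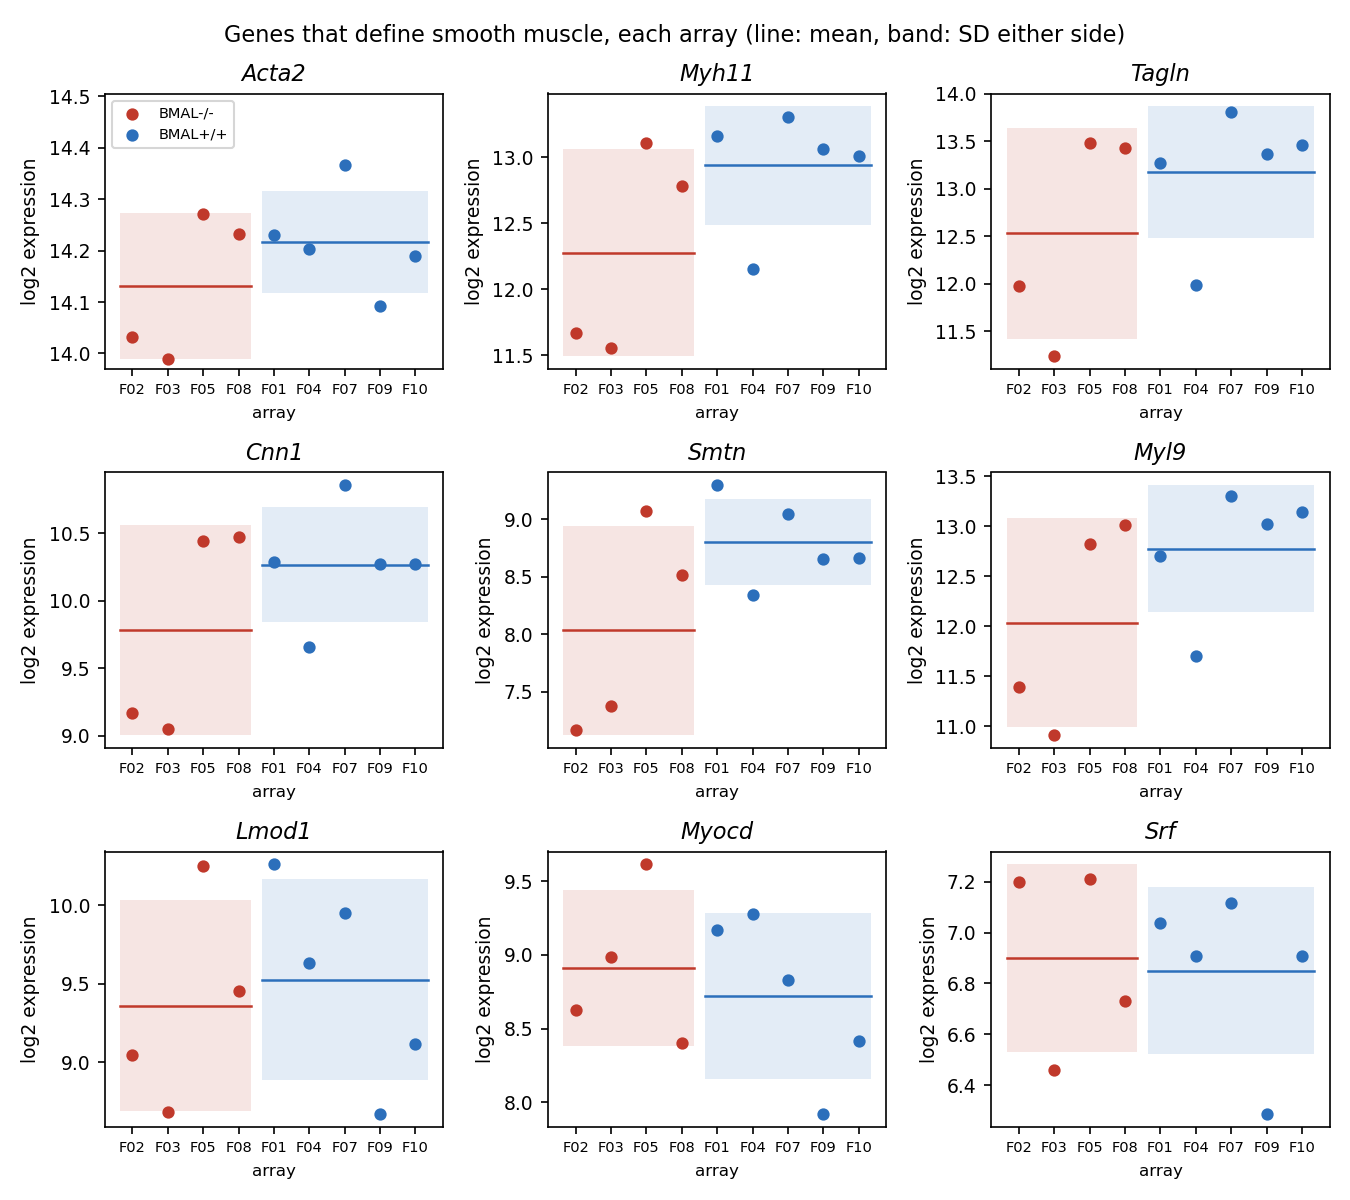
Log2 expression (vertical axis, a separate scale for each gene) on each array (horizontal axis) for 9 genes that define smooth muscle, BMAL-/- in red and BMAL+/+ in blue. Lines are group means and bands 1 SD either side (n = 4 and 5). F02, F03 and F04 are the low points for Myh11, Tagln, Cnn1, Smtn and Myl9, whereas F09 is the lowest for Lmod1, Myocd and Srf.

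Among the 9 thin filament proteins, 7 were lower by estimate over 9 arrays and 9 over 7 arrays, with medians of -0.49 and -0.86. Tagln, which encodes the actin-binding protein SM22, read 11.98, 11.24, 13.48 and 13.43 in BMAL-/-, against 13.27, 11.99, 13.81, 13.36 and 13.46 in BMAL+/+ aortae. F02 and F04, of different labelled genotypes, were level at 11.98 and 11.99, F03 was lower still, and the other arrays lay between 13.27 and 13.81. The difference was -0.65 ± 0.54 (adjusted p = 0.50), and -1.26 ± 0.49 over 7 arrays (adjusted p = 0.21). Cnn1, calponin, which slows actomyosin, read 9.17, 9.05, 10.44 and 10.47 in BMAL-/-, against 10.28, 9.66, 10.86, 10.27 and 10.27 in BMAL+/+ aortae. It followed the same order of arrays, with differences of -0.49 ± 0.37 (adjusted p = 0.46) and -0.86 ± 0.37 (adjusted p = 0.21).

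Smtn, smoothelin, a protein of fully contractile smooth muscle, read 7.17, 7.37, 9.07 and 8.52 in BMAL-/-, against 9.30, 8.34, 9.05, 8.65 and 8.67 in BMAL+/+ aortae. F02 and F03 were the lowest by almost 1 log2 unit, and over the 7 arrays the groups did not overlap. Its difference was -0.77 ± 0.41 (adjusted p = 0.37) and -1.23 ± 0.36 (adjusted p = 0.21). Lmod1, leiomodin, which seeds actin filaments, read 9.05, 8.69, 10.25 and 9.46 in BMAL-/-, against 10.26, 9.63, 9.95, 8.67 and 9.12 in BMAL+/+ aortae. Here F04 was above the middle and F09 was the lowest, and the groups overlapped over their whole length. The difference was -0.17 ± 0.40 (adjusted p = 0.82), and -0.44 ± 0.42 over 7 arrays (adjusted p = 0.49).

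The caldesmon gene Cald1, whose protein binds actin and tropomyosin, read 12.88, 12.66, 13.46 and 12.93 in BMAL-/-, against 13.32, 13.05, 13.17, 12.25 and 12.71 in BMAL+/+ aortae, a difference of 0.08 ± 0.24 (adjusted p = 0.86). Tpm2, beta-tropomyosin, read 13.64, 13.34, 13.89 and 13.53 in BMAL-/-, against just under 14, 13.70, 13.89, 12.86 and 13.35 in BMAL+/+ aortae, a difference of 0.04 ± 0.23 (adjusted p = 0.93). F09 was the lowest array for both. Over 7 arrays their estimates were -0.04 ± 0.26 and -0.02 ± 0.28. Over 9 arrays 3 further Cald1 probe sets had the opposite sign, while another, near the floor at 2.70, did not. The brightest of these further sets differed by -0.59 ± 0.40 over 9 and -0.92 ± 0.41 over 7 arrays, and the next by -0.24 ± 0.21 and -0.44 ± 0.21. Tpm1, alpha-tropomyosin, went with the heavy chain instead, with 10.02 and 9.64 on F02 and F03, 10.18 on F04, and 11.06 to 11.85 on the other 6 arrays. A probe set of Tpm1 almost as bright did not, with F04, F01 and F03 as its lowest arrays, 10.64 on F02 and a difference of 0.04 ± 0.74 over 9 arrays. Dstn, destrin, which takes actin filaments apart, differed by -0.60 ± 0.34 over 9 and -0.95 ± 0.33 over 7 arrays, and Cnn2, a calponin of many cell types, by -0.15 ± 0.26 and -0.27 ± 0.32.

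The 4 genes that set light chain phosphorylation had median differences of -0.11 and -0.30 at their brightest probe sets. Mylk, myosin light chain kinase, averaged 11.60 ± 0.34 in BMAL-/- and 11.63 ± 0.46 in BMAL+/+ aortae (SD, n = 4 and 5), a difference of -0.02 ± 0.26 (limma SE). Ppp1r12a, the subunit that brings myosin phosphatase to myosin, differed by -0.05 ± 0.32, and Rock1 by -0.16 ± 0.24. Mylk and Ppp1r12a were lowest on F09, at 11.01 and 10.79. Ppp1r14a, the phosphatase inhibitor, did not follow them: it read 8.62, 7.74, 9.35 and 9.43 in BMAL-/-, against 9.23, 8.28, 9.76, 9.32 and 9.25 in BMAL+/+ aortae, with F03, F04 and F02 lowest. Its difference was -0.38 ± 0.41 over 9 arrays (adjusted p = 0.59) and -0.79 ± 0.39 over 7 (adjusted p = 0.23). Mylk, Ppp1r12a and Rock1 had 9 further, dimmer probe sets, all lower in BMAL-/- aortae by estimate over 7 arrays. Of these, 5 were lower at an unadjusted p under 0.05, beside 4.13% of all genes at their brightest probe sets. One of Mylk differed by -0.94 ± 0.30 over 7 arrays, with groups that did not overlap, 1 of Ppp1r12a by -0.74 ± 0.31, and 3 of Rock1 by -0.57 ± 0.22, -0.68 ± 0.27 and -1.17 ± 0.35. The last of these also had groups that did not overlap, and none of the 5 passed limma's test after Benjamini-Hochberg adjustment. The 4 of Mylk and Rock1 had F02, F03 and F04 as their 3 lowest arrays.

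Of the 10 genes of adhesion, crosslinking and intermediate filaments, 8 were lower by estimate over 9 arrays and 9 over 7 arrays, with medians of -0.33 and -0.55. Flna, filamin A, which crosslinks actin and binds integrins, read 10.61, 10.98, 12.87 and 12.46 in BMAL-/-, against 12.59, 11.92, 12.97, 12.72 and 12.80 in BMAL+/+ aortae. F02 and F03 lay about 1 log2 unit under F04, which was in turn under the other 6 arrays. The difference was -0.87 ± 0.47 (adjusted p = 0.37), and -1.42 ± 0.42 without F04 and F05 (adjusted p = 0.21). Csrp1, a LIM-domain protein of actin bundles, read 8.92, 8.07, 10.88 and 10.74 in BMAL-/-, against 10.51, 8.81, 11.42, 10.93 and 10.92 in BMAL+/+ aortae. A gap of more than 1.5 log2 units lay between F02, F03 and F04 and the rest, with both labelled genotypes on each side of it. On the low side BMAL+/+ was F04 alone, which stood with the opposite genotype in the clock genes. The differences were -0.86 ± 0.71 (adjusted p = 0.49) and -1.70 ± 0.61 (adjusted p = 0.21). The other Csrp1 probe set split the arrays the same way and more widely, at 4.80, 4.68 and 5.45 on F02, F03 and F04 and 9.26 to 10.58 on the other 6 arrays.

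Vcl, vinculin, differed by 0.01 ± 0.26 over 9 arrays, and Tln1, talin, by -0.35 ± 0.25. A dimmer probe set of Vcl differed by -0.45 ± 0.39 over 9 arrays and -0.83 ± 0.38 over 7. Nexn, nexilin, a filament-binding protein, read 8.73, 8.49, 8.98 and 9.27 in BMAL-/-, against 8.73, 8.57, 9.08, 8.73 and 8.42 in BMAL+/+ aortae. The groups overlapped, at 0.16 ± 0.19 (adjusted p = 0.64) and 0.09 ± 0.24 over 7 arrays (adjusted p = 0.82). Actn1, alpha-actinin, differed by -0.31 ± 0.27 and -0.62 ± 0.24. Itga8, the integrin alpha chain of smooth muscle, together with the scaffold genes Pdlim7 and Synpo2, differed by -0.18 ± 0.18, -0.23 ± 0.33 and -0.43 ± 0.36 over 9 arrays, and all 3 had F02, F03 and F09 as their lowest arrays. A dimmer probe set of Itga8 differed by -1.15 ± 0.78 over 9 arrays and -1.98 ± 0.75 over 7 (adjusted p = 0.42 and 0.21 by limma). Both dimmer probe sets of Pdlim7 went the other way, at 0.28 ± 0.28 and 0.22 ± 0.19 over 9 arrays. So did 1 of Synpo2, at 0.41 ± 0.29, while its other dimmer ones were lower by estimate. These signs were the same over 7 arrays.

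Neither gene of the transcription factor pair was lower over 9 arrays. Myocd, myocardin, the partner that makes serum response factor act on smooth muscle genes, read 8.63, 8.98, 9.62 and 8.40 in BMAL-/-, against 9.17, 9.28, 8.83, 7.92 and 8.42 in BMAL+/+ aortae. F05 was the highest and F09 the lowest, and F02, F03 and F04 were in the middle or high. The difference was 0.19 ± 0.34 (adjusted p = 0.76), and 0.09 ± 0.32 over 7 arrays (adjusted p = 0.86). Srf read 7.20, 6.46, 7.21 and 6.73 in BMAL-/-, against 7.04, 6.91, 7.12, 6.28 and 6.91 in BMAL+/+ aortae. Its difference was 0.05 ± 0.23 (adjusted p = 0.91), and -0.04 ± 0.27 over 7 arrays (adjusted p = 0.93). The widest spread of the 32 was that of Pln, phospholamban, which restrains the calcium pump of the sarcoplasmic reticulum. It read 3.1, 7.73, 6.61 and 3.87 in BMAL-/-, against 6.53, 3.60, 7.74, 7.59 and 6.47 in BMAL+/+ aortae. F02, F04 and F08 were near the array's floor, and the difference was -1.06 ± 1.15 (adjusted p = 0.60) and -2.19 ± 1.09 (adjusted p = 0.23). Rgs5, which shuts off G protein signals in arterial smooth muscle and pericytes, read 11.67, 11.40, 13.28 and 12.36 in BMAL-/-, against 13.19, 11.99, 13.10, 12.94 and 13.41 in BMAL+/+ aortae. F08 was also low for this gene, so over 7 arrays the groups were apart, with a difference of -1.35 ± 0.24 (unadjusted p = 0.00094 and adjusted p = 0.21 by limma), the smallest p of the 32.

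The 32 genes had 42 further probe sets, dimmer than those above. Of these, 29 were lower in BMAL-/- aortae over 9 arrays and 31 over 7. With an unadjusted p under 0.05 there were 0 and 12, all 12 lower. Of all genes at their brightest probe sets, 0.731% and 4.13% were lower at that threshold. The 3 lowest arrays were F02, F03 and F04 for 14 of the 42, beside 7.97% of the brighter genes, and for 9 of those 12. Shares over the further probe sets of all genes were not computed. The sign was opposite to that of the gene's own brightest probe set for 15 of 42 over 9 arrays and 10 of 42 over 7.

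Set out by array, the 32 genes varied widely within each genotype. Each gene's deviation from its own median over the 9 arrays was negative in 26 of 32 genes on F02, 30 on F03, 0 on F05 and 13 on F08, against 6 on F01, 18 on F04, 0 on F07, 19 on F09 and 12 on F10. F03 held the lowest value of 16 genes (50%, beside 11.8% of the brighter genes) and F09 that of 9 (28.1%, beside 25.5%). The highest value was on F07 for 13 genes (beside 5.36% of the brighter genes) and on F01 for 9 (beside 9.38%). The mean over the 32 genes was 9.85, 9.74, 10.89 and 10.53 on the BMAL-/- arrays, against 10.81, 10.15, 11.04, 10.43 and 10.60 on the BMAL+/+ arrays. Without regard to genotype, 2 patterns took up most of the set. In 12 genes the 3 lowest arrays were F02, F03 and F04 (37.5%, beside 7.97% of the brighter genes): Myh11, Myl6, Myl9, Tagln, Cnn1, Tpm1, Smtn, Dstn, Ppp1r14a, Flna, Csrp1 and Rgs5. In 12 others F09 and F03 were among the 3 lowest together with F02 or F10. Those with F02 were Acta2, Actg2, Lmod1, Rock1, Pdlim7, Synpo2 and Itga8 (21.9%, beside 2.19%), and those with F10 were Cald1, Tpm2, Mylk, Ppp1r12a and Vcl (15.6%, beside 2.31%). These groupings were read off the values of the brightest probe sets and are a description with no test. They can change with the probe set. Dimmer ones of Acta2, Mylk, Rock1, Itga8 and Vcl had F02, F03 and F04 as their lowest arrays. Some dimmer ones of Myh11, Tpm1 and Rgs5 did not. The 12 genes of the F02, F03 and F04 pattern were also the 12 of 12 that passed in the 7 arrays without F08 and with array weights. That match is no separate support, because both read the same values. In the fit without F08 the only BMAL-/- arrays were F02 and F03, which the pattern had picked as low.

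**Figure D3:**
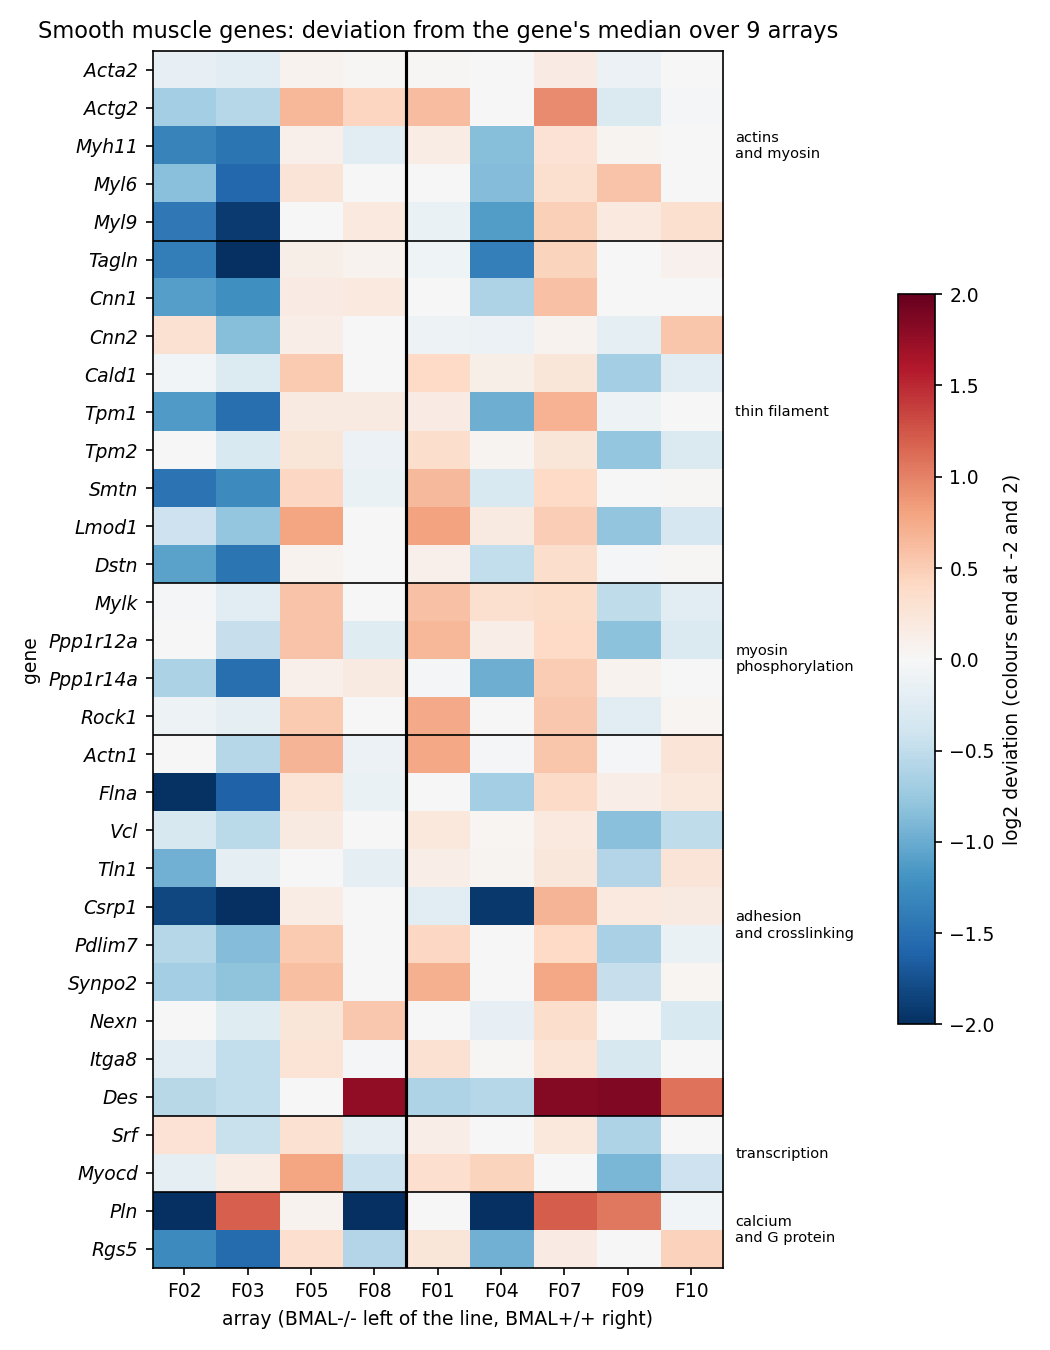
Deviation of each of the 32 genes (rows, by role) from its own median over the 9 arrays (columns, BMAL-/- left of the line), in log2 units, blue for lower and red for higher, with colours ending at 2 units either way. Columns F02 and F03 are blue for most genes, column F04 only for some, among them Myh11, Myl9, Tagln and Csrp1. Several genes, Des and Pln among them, share their set of lowest arrays with no other of the 32.

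The 3 low arrays of the larger pattern were those with the largest 3′ minus 5′ control difference. In the clock gene Npas2 they also stood with F08. It read 8.08, 7.90 and 8.36 on F02, F03 and F04 and 8.52 on F08, against 3.37 to 3.40 on the other arrays. For Csrp1, F02, F03 and F04 read 8.07 to 8.92 at control differences of 3.46 to 3.77, while the other 6 arrays read 10.51 to 11.42 at 0.63 to 1.99. Tagln read 11.24 to 11.99 on those 3 arrays and 13.27 to 13.81 on the other 6. Tpm2 and Myocd showed no such step at their brightest probe sets. Acta2, whose brightest probe set had the narrowest range of the 32 genes within each genotype over 9 arrays, was lowest on F02 and F03 but not on F04, whereas both of its dimmer probe sets had F03, F02 and F04 as their 3 lowest arrays. A fit with the control difference as a covariate beside genotype, chosen after the control probe sets had been seen, gave a median difference of the 32 genes of -0.10 in place of -0.33 over 9 arrays, and of -0.29 in place of -0.60 over 7. BMAL-/- was lower by estimate in 25 and 30 genes, 24 and 29 of them also lower without the covariate. Ppp1r14a and Des turned higher over 9 arrays and Tpm2 lower, and over 7 arrays Des turned higher and Myocd lower. Csrp1 came to -0.11 ± 0.30 in place of -0.86 ± 0.71 over 9 arrays and to -0.48 ± 0.43 in place of -1.70 ± 0.61 over 7, Tagln to -0.08 ± 0.26 and -0.31 ± 0.38, and Myh11 to -0.29 ± 0.21 and -0.57 ± 0.25. Rgs5 kept the clearest difference over 7 arrays, -0.95 ± 0.24, with an unadjusted p of 0.0080 by limma and an adjusted p of 0.46. With this covariate 0 of 32 genes passed an adjusted p of 0.05 in either set of arrays. With F02 and F03 labelled BMAL-/- and F04 alone labelled BMAL+/+, the covariate and the labelled genotype overlap in part. They do so more over 7 arrays, where F04 is missing. The part of RNA quality in the lower values was not tested beyond this, and that of clock gene state was not tested.

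**Figure D4:**
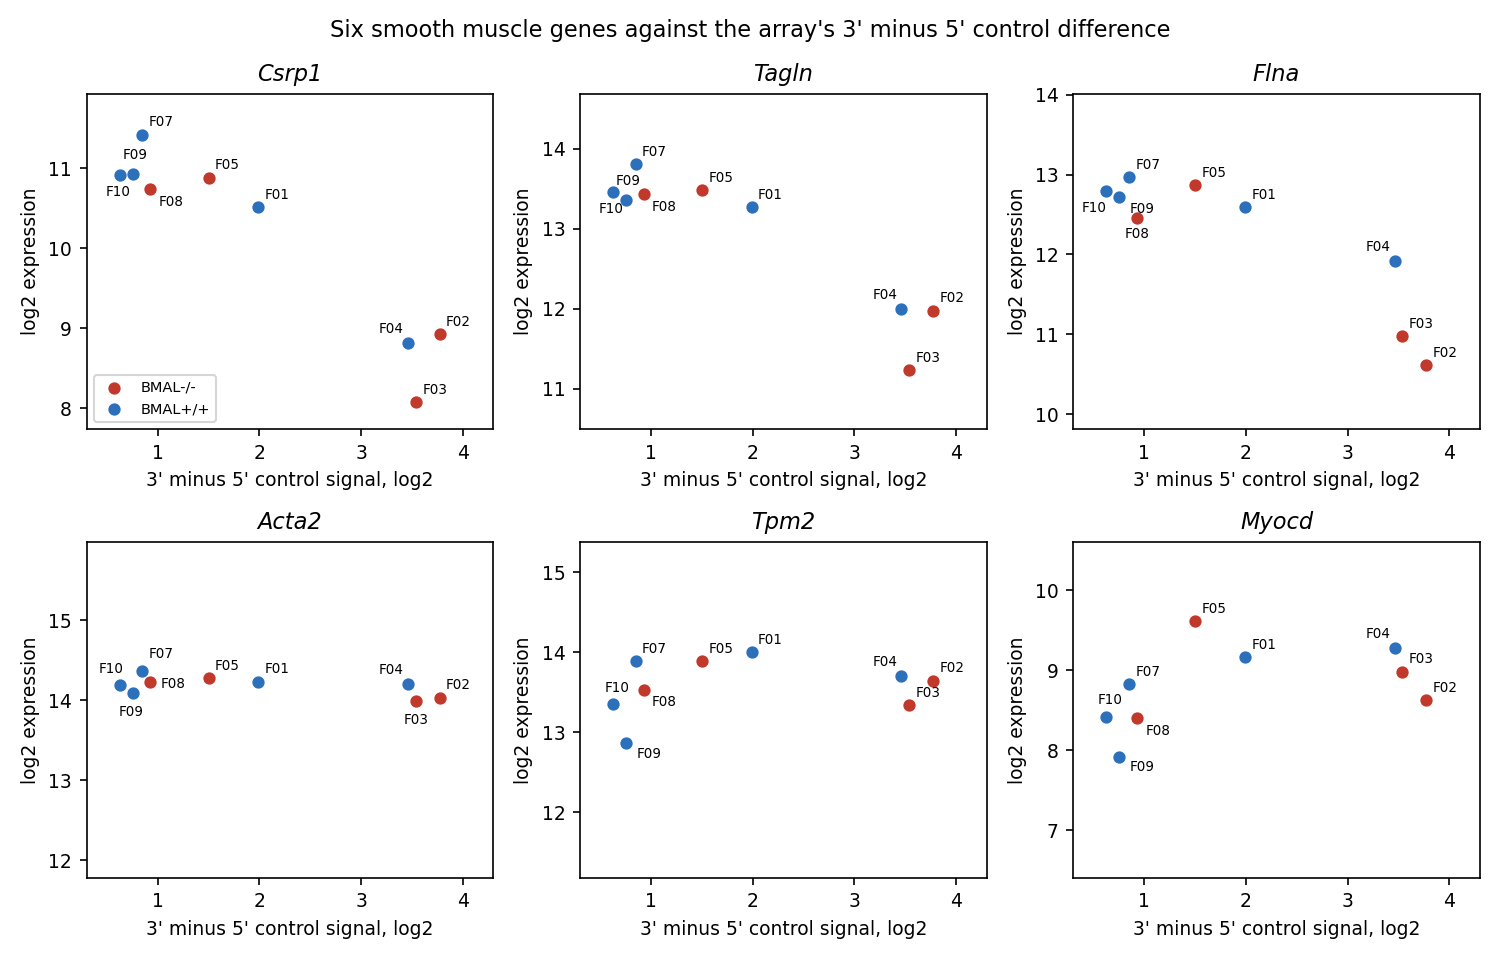
Log2 expression of 6 of the genes (vertical axis, the same span in each panel) against the mean 3′ minus 5′ difference of the array's beta-actin and Gapdh controls (horizontal axis, log2), BMAL-/- in red and BMAL+/+ in blue, each point 1 array. The genes were picked for the contrast: Csrp1, Tagln and Flna are low on the 3 arrays at the right, while Tpm2 and Myocd are not set apart there, and Acta2 is lowest on F02 and F03 by an amount that is small on this span.

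Desmin and phospholamban are also made by striated muscle, and neither shared its 3 lowest arrays with any other of the 32 genes. The same held for Tln1, Actn1, Cnn2, Nexn, Srf and Myocd. Des, the intermediate filament of muscle cells, read 5.29, 5.34, 5.84 and 7.61 in BMAL-/-, against 5.22, 5.26, 7.68, 7.70 and 6.92 in BMAL+/+ aortae. It was high on F08, F07, F09 and F10, and differed by -0.54 ± 0.71 (adjusted p = 0.67). Ckm, the creatine kinase of skeletal muscle, read 10.53, 8.79, 5.88 and 10.65 in BMAL-/-, against 4.25, 6.59, 10.41, 9.63 and 10.19 in BMAL+/+ aortae. It was thus high on those same 4 arrays, and also on F02 and F03, where Des was low. The cardiac gene Myl7, an atrial myosin light chain, read 2.36, 8.42, 9.58 and 5.67 in BMAL-/-, against 7.66, 3.15, 10.53, 10.95 and 9.45 in BMAL+/+ aortae. Its 3 lowest arrays, F02, F04 and F08, were those of Pln, and Tnnt2, cardiac troponin T, had the same 3 lowest at 4.79, 7.15 and 7.17. Another Tpm2 probe set, of a kind that can bind related transcripts, went with Ckm, reading 9.46, 8.74, 7.11 and 11.22 in BMAL-/-, against 4.41, 7.20, 10.87, 9.87 and 10.51 in BMAL+/+ aortae. Over the whole list of 18 striated muscle genes, 18 of 18 were measured and 1 (Myl7, lower in the 7 arrays) had an unadjusted p under 0.05. Of all genes, 4.13% were lower at that threshold over 7 arrays. The smallest p-values of the striated muscle list were those of Nppa, Myh4 and Myl7 over 9 arrays and of Myl7, Nppa and Actc1 over 7. The log2 of the summed signal of those 18 ranged from 13.37 to 15.68 on BMAL-/- and 11.86 to 15.65 on BMAL+/+ arrays, with 1 of the 18 below 3 on F02 and 2 on F01. The part of striated muscle RNA in the values of Des, Pln and that Tpm2 probe set was not tested.

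**Figure D5:**
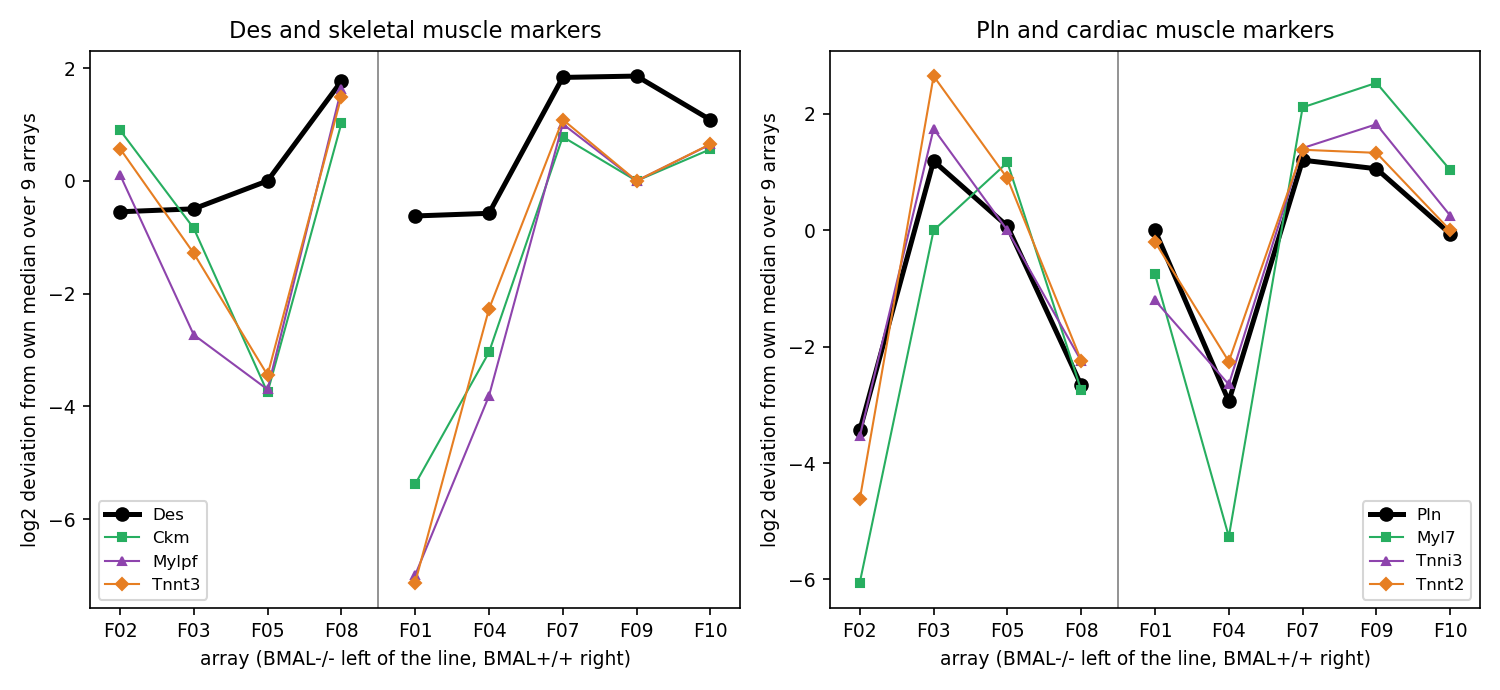
Deviation from a gene's own median over the 9 arrays (vertical axis, log2) on each array (horizontal axis, BMAL-/- left of the line). The left panel has Des in black with the skeletal muscle genes Ckm, Mylpf and Tnnt3, and the right panel Pln in black with the cardiac genes Myl7, Tnni3 and Tnnt2. Lines only join arrays of 1 genotype for the eye. Pln and the cardiac genes share their low arrays F02, F04 and F08, while Des is high on F08, F07, F09 and F10.

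Other genes of the cytoskeleton and its regulation, from 3 lists that leave out the 32, passed an adjusted p of 0.05 in 0 cases in either set of arrays. At an unadjusted p under 0.05, 0.731% of all genes were lower and 6.52% higher over 9 arrays, and 4.13% and 18.2% over 7. Of 29 other adhesion and actin-binding genes, 1 was lower and 1 higher at that threshold over 9 arrays, and 2 lower and 1 higher over 7. Zyx, zyxin, a sensor of tension at adhesions, was the lower one in both, at -0.69 ± 0.26 and -0.91 ± 0.26, and Pdlim3 the other over 7 arrays, at -1.02 ± 0.34. Itga5 was the higher one, at 0.17 ± 0.07 and 0.22 ± 0.07, with all values under 4, near the floor. Dystrophin, Dmd, differed by -0.35 ± 0.22 over 9 arrays.

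Of 13 genes of the nonmuscle cytoskeleton, 0 had an unadjusted p under 0.05 over 9 arrays and 3, all lower, over 7 (beside 4.13% of all genes lower over 7). The 3 were Vim, vimentin, at -0.37 ± 0.11, Actb, beta-actin, at -0.32 ± 0.12, and the actin-sequestering Tmsb4x at -1.27 ± 0.51. Over 9 arrays the genes of smallest p in that list were Pfn1, Myl12a and Actb, at -1.15 ± 0.60, 0.30 ± 0.19 and -0.19 ± 0.13. Pfn1 read 8.76 on F09, against 5.52 to 6.74 on the other BMAL+/+ arrays. Of 10 other regulators of serum response factor and smooth muscle transcription, 0 passed the unadjusted threshold over 9 arrays and 1 over 7 (beside the same 4.13%), the Notch target Heyl at -0.56 ± 0.20. Mrtfa, a relative of myocardin, and Gata6 followed at -0.48 ± 0.22 and -0.67 ± 0.32, and over 9 arrays Heyl, Foxo4 and Elk1 at -0.35 ± 0.23, 0.29 ± 0.24 and 0.04 ± 0.04.

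Markers of other cells of the vessel wall held 0 genes with an adjusted p under 0.05 in either set of arrays, and the order of the arrays differed between lists. The mean of the fibroblast list was lowest on F03, F02 and F04, that of the macrophage list on F03, F08 and F02, that of the endothelial list on F02, F03 and F08, that of the pericyte list on F03, F02 and F09, and those of the adipocyte and Schwann cell lists on F02, F04 and F05. At an unadjusted p under 0.05, 0.731% of all genes were lower and 6.52% higher over 9 arrays, and 4.13% and 18.2% over 7. Fibroblast genes had a median difference of -0.68 over 9 and -1.18 over 7 arrays, with 6 of 8 lower by estimate in both sets and 5 of 8 at an unadjusted p under 0.05 over 7, led by Dcn, Dpt and Pi16. Over 9 arrays Dcn, Dpt and Lum had the smallest p, with Dcn alone under 0.05 unadjusted. The log2 of their summed signal ranged from 13.44 to 14.74 on BMAL-/- and 14.14 to 14.90 on BMAL+/+ arrays. Macrophage genes had medians of -0.62 and -0.96, with 8 of 8 lower by estimate and 5 of 8 at an unadjusted p under 0.05 over 7 arrays, led by Cd163, C1qc and Mrc1 (Adgre1, C1qa and C1qc over 9 arrays), at summed signals of 10.76 to 12.20 and 11.50 to 12.57. Endothelial genes had medians of -0.31 and -0.40, with 3 of 8 lower at that threshold over 7 arrays, led by Pecam1 at -1.94 ± 0.31, and Kdr higher (Pecam1, Esam and Tie1 were first over 9 arrays), at summed signals of 10.28 to 11.13 and 10.43 to 11.41. Pericyte genes had medians of -0.23 and -0.42, with Abcc9 alone at an unadjusted p under 0.05, over 7 arrays, ahead of Cspg4 and Kcnj8 (Mcam over 9), and summed signals of 11.80 to 12.76 and 11.73 to 12.71. The 5 measured adipocyte genes, with Adipoq and Cidea first by p and Ucp1 or Fabp4 next, had medians of -0.19 and -0.18 and summed signals of 15.45 to 16.18 and 15.66 to 16.49. The 3 measured Schwann cell genes had medians of 0.00 and 0.05, with Pmp22 lower over 7 arrays ahead of Sox10 and Mbp, and summed signals of 9.65 to 10.30 and 9.74 to 10.84. Their part in the smooth muscle values was not tested.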

How the data were processed

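RNA of 9 aorta samples was measured on 1 array each. The authors deposited log2 expression values per probe set, normalized across arrays. GCRMA and MAS5 are named, per the submitters' processing notes, with neither role nor version. Detection calls and the genome build are not given in the sources used here. Array number limits the precision. Probe sets were named from the platform annotation with symbols updated by gene ID: of 45101, 64 controls were left out, and 34945 had 1 gene. Genotypes came from sample titles, and the design text calls the arrays biological replicates.

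BMAL-/- minus BMAL+/+ was fitted on all 45037 probe sets with limma 3.58.1 (lmFit, eBayes with trend, R 4.3.3), with two-sided tests, Benjamini-Hochberg adjustment over all of them and a threshold of 0.05. The code was tested on simulated data. The same fit was run without F04 and F05. The 32 genes, the other lists and this second fit were chosen with earlier results of these data known. Values per array are given for 9 defining genes and the 3 with the largest difference each way in each fit, and, from other lists, the 3 genes of smallest p. A few further genes, Ppp1r14a, Rgs5 and Des among them, were added after their values were seen. Alternatives were quantile normalization, centring, no trend, array weights, dim probe sets left out, one-way analysis of variance, averaging each gene over its probe sets, F01 as BMAL-/-, each array left out, and the control covariate. The result of 1 further list is not reported here.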

Additional observations from a re-analysis of the deposited data

Results flagged for a closer look

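In 3 of the 64 groups tested (32 genes in each genotype), 1 array stood apart from the others of its group by Dixon's gap test, which chance does in about 1 group in 20. Myh11 read 12.16 on the BMAL+/+ array F04, below the other 4 at 13.01 to 13.30. Tln1 read 8.55 on the BMAL+/+ array F09, against 9.20 to 9.39 on the other 4. Srf read 6.28 on that same array, against 6.91 to 7.12.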

How the results depend on the processing

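Leaving out arrays or changing the fit left 0 of 32 genes past the threshold over 9 arrays in each alternative run. Over 7 arrays the count was 12 with array weights, beside 30.2% of all genes. It ranged from 0 to 12 when 1 array was left out, the 12 being without F08, beside 31.3% of all genes. In the other alternatives it was 0. The median difference ran from -0.50 to -0.12 over 9 arrays and from -0.83 to -0.43 over 7 when 1 array was left out, and was -0.15 and -0.29 with F01 as BMAL-/-. Estimates near 0 changed sign, and so did some farther from 0, none of them past the threshold, and the cause was not tested. With the control covariate, Des became 0.14 in place of -0.54 over 9 arrays and 0.89 in place of -0.80 over 7. Ppp1r14a became 0.0066 in place of -0.38 over 9 arrays. Over 9 arrays Lmod1 became 0.36 with array weights and 0.20 with F01 as BMAL-/-, Cald1 -0.16 as the mean of its probe sets, and Tpm2 -0.0016 after centring and -0.0053 with the control covariate. Over 7 arrays, with F01 as BMAL-/-, Lmod1 became 0.12, Srf 0.088, Cald1 0.24 and Tpm2 0.26. Quantile normalization gave 0.051 for Srf and 0.034 for Cald1, the mean of its probe sets 0.12 for Tpm2, array weights -0.18 for Nexn, and the covariate -0.31 for Myocd. With 1 array left out, the 9-array differences ranged from -0.46 to 0.059 for Lmod1, -0.051 to 0.35 for Myocd, -0.091 to 0.20 for Srf, -0.081 to 0.19 for Cald1 and -0.14 to 0.15 for Tpm2, and the 7-array ones from -0.13 to 0.28 for Myocd, -0.24 to 0.13 for Srf, -0.25 to 0.11 for Cald1, -0.24 to 0.14 for Tpm2 and -0.13 to 0.26 for Nexn. No paired analysis was possible because the groups share no replicate numbers. The number of arrays limits the precision: standard errors of the 32 genes ran from 0.09 (Acta2) to 1.15 (Pln) over 9 arrays.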
